A study of Mus musculus with 2 samples.

Results

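Haematopoietic cytokines are secreted or cell-bound proteins that keep blood progenitors and their descendants alive and dividing through receptors on those cells. The 9 genes described here were taken by their symbols from the 31053 genes counted in the study: the ligands Thpo, Epo, Csf1, Il34 and Flt3l and the receptors Epor, Csf1r, Flt3 and Il7r. Il7, the ligand of Il7r, was added as a partner so that it could be set beside its receptor. Thrombopoietin drives megakaryocytes, erythropoietin drives red cell precursors, CSF1 and IL-34 both act on CSF1R of macrophages, FLT3 ligand acts on FLT3 of early progenitors, and IL-7 acts on lymphoid and other fetal progenitors. EPOR and IL7R have no kinase of their own and signal through JAK kinases and STAT factors, whereas CSF1R and FLT3 are receptor tyrosine kinases. In the adult the kidney makes most erythropoietin, and before birth the liver is known as its main source.

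The study measured RNA of single cells from the dorsal aorta with the tissue around it and from the fetal liver, which are known as sites where blood stem cells form and then expand. There were 2 samples, 1 from E11.5 C57BL/6 embryos and 1 from E10.5 C57BL/6 embryos, and each pooled both tissues into 1 droplet library. The strain and tissues were the same at both stages, and the labels give no treatment or modified allele and do not say how many embryos were pooled. Counts were of unique molecular identifiers (UMIs), which mark single captured RNA molecules, read near the 3′ ends of transcripts.

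The E11.5 library held 159619785 UMIs in 12289 barcodes and the E10.5 library 151474708 UMIs in 10996 barcodes. After filtering, 8976 cells with a median of 13131 UMIs were analysed at E11.5 and 8009 cells with a median of 15479 UMIs at E10.5. The libraries shared 37 barcodes, of which 20 were among the analysed cells. Cells were clustered without the 9 genes and the other cytokine ligands and receptors, and 45 of 56 clusters were named by likeness to marker genes, which left 44.9% of the E11.5 cells and 38.0% of the E10.5 cells in unnamed clusters. Both labelled tissues were present by their markers: hepatoblast-like cells numbered 288 at E11.5 and 83 at E10.5, and arterial endothelium-like cells 56 at E11.5 and 148 at E10.5. Adult-globin and globin-poor erythroid-like cells occurred only in the E11.5 library among named clusters (389 and 242 cells, against 0 and 0 at E10.5), and megakaryocyte-like cells numbered 108 at E11.5 and 9 at E10.5.

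With 1 library per stage there was no test between stages, and no p-value is given. Levels are counts per 1000000 UMIs (CPM) of the UMIs summed over the cells of a class, leaving haemoglobin and mitochondrial genes out of the total. All intervals are exact 95% intervals and cover counting error only, not differences between embryos or libraries. UMI counts are not scaled to transcript length, so levels are compared between cells and not between genes.

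In all analysed cells, Epor gave the most UMIs of the 9 genes and Epo gave none. Epor had 3499 UMIs at E11.5 and 698 at E10.5, and Csf1r had 1347 at E11.5 and 210 at E10.5. Csf1 had 828 UMIs at E11.5 and 558 at E10.5, and Flt3l had 300 at E11.5 and 102 at E10.5. The remaining ligands and receptors were sparse: Thpo had 111 UMIs at E11.5 and 52 at E10.5, Flt3 had 52 at E11.5 and 4 at E10.5, Il34 had 43 at E11.5 and 7 at E10.5, and Il7r had 32 at E11.5 and 5 at E10.5. Il7 had 72 UMIs at E11.5 and 13 at E10.5. These totals follow which cells each library held as well as the level within a cell, so the results below are given within classes.

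**Figure D1:**
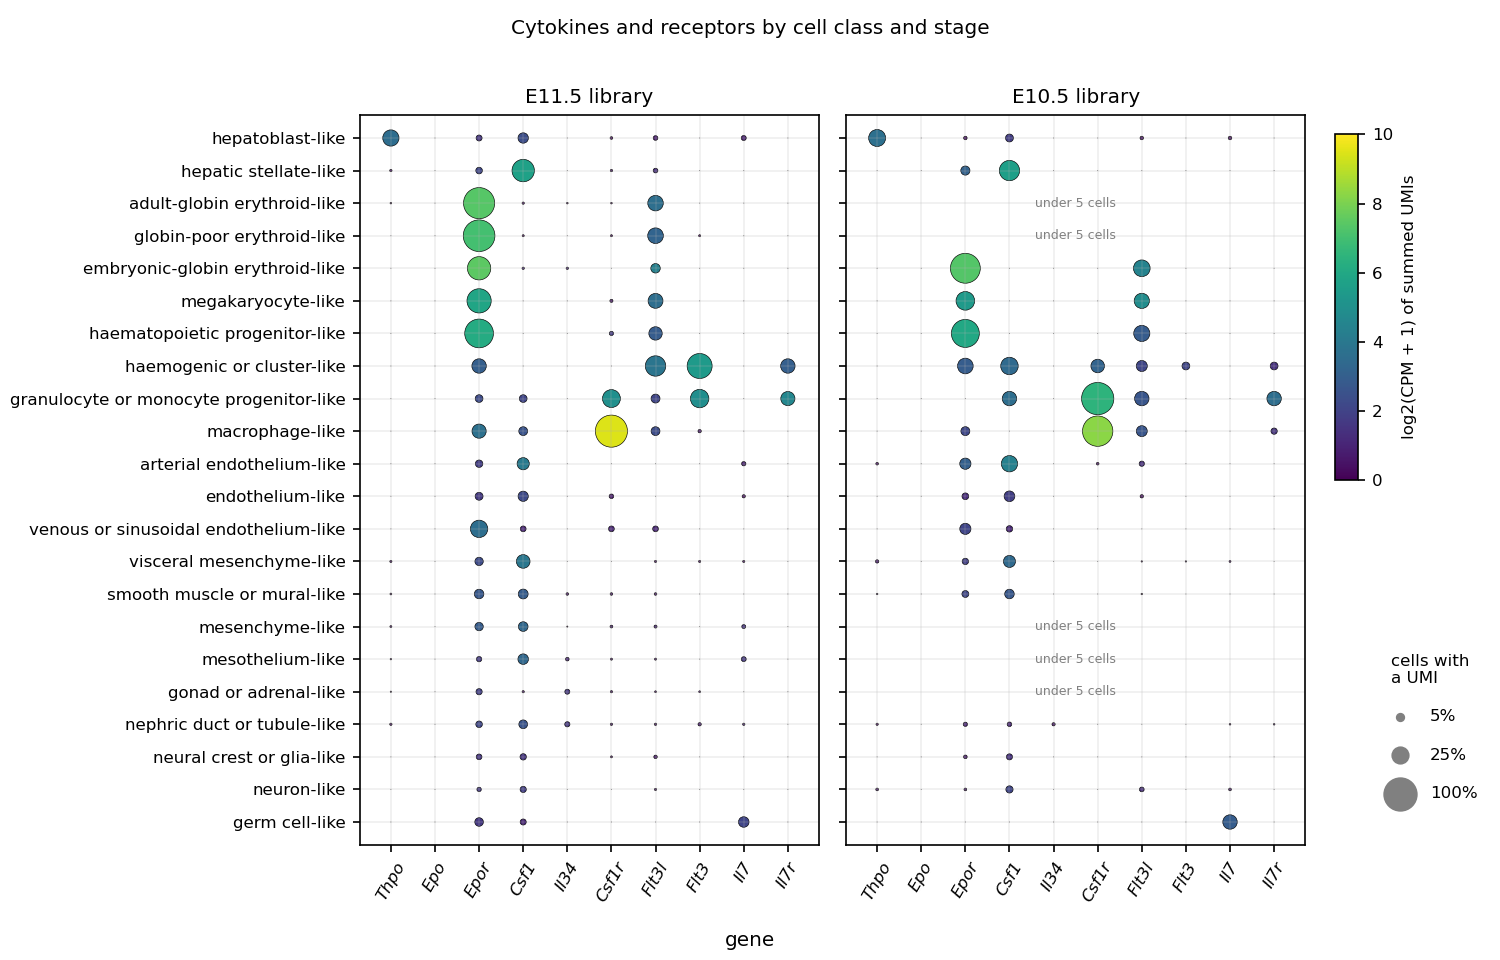
Level of the 9 genes and of Il7 in named classes, with the E11.5 library on the left and the E10.5 library on the right. The sclerotome-like, dermomyotome or muscle-like and notochord or floor plate-like classes are not plotted. The colour is log2(CPM + 1) of UMIs summed over the class and the dot area is the share of cells with a UMI. Thpo stands in hepatoblast-like cells, Epor and Flt3l in blood classes, Csf1 in hepatic stellate-like and arterial endothelium-like cells, and Csf1r in macrophage-like cells at both stages.

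Promoter sequences are shown for the genes whose transcripts stood in the same cells or in a single class, since those are the patterns that the results below describe. They cover 250 bases before to 50 bases after the start in RefSeq (GRCm38.p6), are on the minus strand of the genome and are written 5′ to 3′ in the direction of the gene. Capitals mark a match to AGATAA, the core letters bound by GATA factors, or to GGAAGT, core letters bound by ETS factors, each searched on both strands. The window is chr9:21963527-21963826 for Epor, chr7:45136383-45136682 for Flt3l, chr5:147400440-147400739 for Flt3, chr15:9529827-9530126 for Il7r and chr16:20730549-20730848 for the second of the 2 Thpo starts.
Epor: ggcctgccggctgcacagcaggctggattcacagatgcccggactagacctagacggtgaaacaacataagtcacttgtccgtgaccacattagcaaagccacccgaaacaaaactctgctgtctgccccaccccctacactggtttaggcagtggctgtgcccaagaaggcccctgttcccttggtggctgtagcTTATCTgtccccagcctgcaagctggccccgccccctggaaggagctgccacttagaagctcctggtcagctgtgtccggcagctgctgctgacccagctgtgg
Flt3l: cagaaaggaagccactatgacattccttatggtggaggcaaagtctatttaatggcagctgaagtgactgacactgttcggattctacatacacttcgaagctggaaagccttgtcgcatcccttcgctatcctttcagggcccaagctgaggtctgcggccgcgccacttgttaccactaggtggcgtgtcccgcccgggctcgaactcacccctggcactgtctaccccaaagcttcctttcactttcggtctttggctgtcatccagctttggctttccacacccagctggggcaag
Flt3: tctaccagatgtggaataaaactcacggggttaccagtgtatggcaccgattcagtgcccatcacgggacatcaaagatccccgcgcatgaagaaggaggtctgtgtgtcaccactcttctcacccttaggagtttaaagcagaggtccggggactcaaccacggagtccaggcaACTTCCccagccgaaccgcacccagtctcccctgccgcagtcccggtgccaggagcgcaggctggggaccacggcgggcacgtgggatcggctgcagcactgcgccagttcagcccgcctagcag
Il7r: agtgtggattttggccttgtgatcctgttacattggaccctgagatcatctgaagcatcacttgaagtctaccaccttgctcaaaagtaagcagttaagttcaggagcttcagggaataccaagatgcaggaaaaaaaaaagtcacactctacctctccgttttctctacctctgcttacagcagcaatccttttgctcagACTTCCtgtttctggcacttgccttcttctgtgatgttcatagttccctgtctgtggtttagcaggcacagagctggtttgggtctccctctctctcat
Thpo: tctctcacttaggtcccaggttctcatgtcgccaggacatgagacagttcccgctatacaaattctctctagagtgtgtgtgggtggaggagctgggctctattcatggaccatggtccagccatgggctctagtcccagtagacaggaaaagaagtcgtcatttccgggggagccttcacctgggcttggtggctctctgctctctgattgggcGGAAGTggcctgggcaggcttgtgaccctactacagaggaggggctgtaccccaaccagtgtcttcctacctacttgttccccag
Epor had 1 match to AGATAA, read on the opposite strand 54 to 49 bases before its start, and none to GGAAGT. Flt3l, which shared the red cell classes with Epor, had no match to either motif in its window. Flt3 and Il7r, which were found together in single cells, each had 1 match to GGAAGT on the opposite strand, 75 to 70 bases before the Flt3 start and 49 to 44 bases before the Il7r start. The second Thpo start had 1 match to GGAAGT on its own strand, 35 to 30 bases before the start, while the first had none of either. Of the 32851 promoter windows of this length, 11.2% held AGATAA and 23.8% held GGAAGT, so a single match is common. No promoter window was found in the reference tables for Il34, Csf1r or Il7.

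Thpo (ENSMUSG00000022847, chr16:20724454-20734511, GRCm38), the gene of thrombopoietin, was a transcript of hepatoblast-like cells at both stages. It had 93 UMIs in 288 hepatoblast-like cells at E11.5, a level of 10.6 CPM (8.54 to 12.96), and 32 UMIs in 83 cells at E10.5, a level of 11.6 CPM (7.94 to 16.4). These cells held 83.8% (75.6 to 90.1%) of all Thpo UMIs at E11.5 and 61.5% (47.0 to 74.7%) at E10.5, while making up 3.21% of the cells at E11.5 and 1.04% at E10.5. The log2 ratio of the levels, E11.5 over E10.5, was -0.13 (-0.73 to 0.49), beside a median of -0.09 over all 10775 genes with at least 20 UMIs in this class. The interval allows a fall or a rise of somewhat under 2-fold, so no stage difference in Thpo was detectable at this depth. Most of the E11.5 cells were in 1 cluster (234 cells at E11.5 and 1 at E10.5) and most of the E10.5 cells in another (54 at E11.5 and 82 at E10.5). Within that second cluster Thpo had 3 UMIs at E11.5 and 31 at E10.5, or 19.2 and 11.4 CPM, with a log2 ratio of 0.75 (-1.61 to 2.43).

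A Thpo UMI was seen in 25.3% of hepatoblast-like cells at E11.5 and in 27.7% at E10.5, with at most 3 UMIs in a cell at either stage. In adult-globin erythroid-like cells, where Thpo is not known to be made, 1 of 389 cells held a UMI at E11.5 (0.26%), at a median depth of 26474 UMIs against 33480 UMIs in hepatoblast-like cells. With each cell thinned to 5000 UMIs the shares in hepatoblast-like cells were 3.39% at E11.5 and 5.41% at E10.5. Visceral mesenchyme-like cells at E10.5 came next with 6 UMIs in 563 cells, a level of 0.63 CPM (0.23 to 1.37), and the log2 ratio of hepatoblast-like to these cells was 4.20 (2.93 to 5.75). At E11.5 dermomyotome or muscle-like cells, with 1 UMI in 27 cells, came next, and their level was not separated from that of hepatoblast-like cells (log2 ratio 2.27, -0.25 to 7.58). Over 37 sums of a class and stage, the genes whose level most resembled Thpo were Pla2g12b, Serpind1 and Gimd1 (Pearson's r of log2(CPM + 10) 0.97, 0.97 and 0.97), a description over points that share 2 libraries. The whole hepatoblast marker list was detected in these cells, at a summed level of 59373 CPM at E11.5 and 23865 CPM at E10.5, so the class differed between stages in its marker level while Thpo did not visibly differ.

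Of a list of 7 liver signalling genes, 5 were measured in hepatoblast-like cells and 3 were at least 2-fold higher at E11.5, none lower, while over all genes there 8.05% were at least 2-fold higher and 4.66% lower. The list's median log2 ratio was 1.51 beside -0.09 over all genes. The growth factor gene Igf2 had 58.0 CPM at E11.5 and 20.3 CPM at E10.5 (log2 ratio 1.51, 1.11 to 1.94). The immediate early gene Egr1, taken from the list of myeloid regulators, had 111 CPM at E11.5 and 5.08 CPM at E10.5 in the same cells (log2 ratio 4.44). Neither rise was particular to hepatoblast-like cells. Igf2 had log2 ratios of 1.46 in arterial endothelium-like and 1.21 in visceral mesenchyme-like cells. Egr1 had 1.91 in nephric duct or tubule-like and 1.19 in hepatic stellate-like cells.

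Epo (ENSMUSG00000029711, chr5:137483020-137533242), the gene of erythropoietin, was not detected in the analysed cells of either stage. A count of 0 allows up to 0.0231 CPM over all analysed cells at E11.5 and 0.0239 CPM at E10.5. In hepatoblast-like cells the limit was 0.341 CPM at E11.5 and 1.09 CPM at E10.5, and up to 1.04% of cells with a UMI at E11.5 and 3.61% at E10.5. In nephric duct or tubule-like cells the limit was 1.01 CPM at E11.5 and 0.395 CPM at E10.5. Over all barcodes passing the cell filters there were 2 Epo UMIs, both at E10.5 and both in barcodes removed as doublets: 1 in a barcode of 30109 UMIs that fell in the neural crest or glia-like class, and 1 in an unnamed barcode of 1494 UMIs. The exons of Epo overlap an exon of Gnb2 on the same strand by 104 of 855 bases. Of the oxygen sensing genes that set Epo transcription, Hif1a was present in hepatoblast-like cells at 72.9 CPM at E11.5 and 111 CPM at E10.5, and Epas1, the gene of HIF-2α, was at 1.93 CPM (17 UMIs) at E11.5 and 0 UMIs at E10.5. Of 9 measured genes in this list, 1 was at least 2-fold higher in hepatoblast-like cells at E11.5 (Egln3: 33 UMIs at E11.5 and 3 at E10.5) and none lower, which is near the 8.05% higher and 4.66% lower over all genes of the class.

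Epor (ENSMUSG00000006235, chr9:21958897-21963506), the erythropoietin receptor, was highest in the erythroid-like classes and reached into progenitor-like and megakaryocyte-like cells. At E11.5 embryonic-globin erythroid-like cells had 176 CPM (150 to 206; 163 UMIs in 184 cells), adult-globin ones 164 CPM (156 to 172; 1537 UMIs in 389 cells) and globin-poor ones 130 CPM (122 to 138; 1072 UMIs in 242 cells). At E10.5 embryonic-globin erythroid-like cells had 161 CPM (146 to 176; 444 UMIs in 183 cells). Embryonic-globin cells are the primitive red cells that come from the yolk sac, and adult-globin cells are the definitive line of the liver. In the order of levels at E11.5, the embryonic-globin and adult-globin classes did not differ beyond their counting error (log2 ratio 0.11, -0.14 to 0.34). That holds only for the total without haemoglobin. Haemoglobin made up 70.7% and 67.2% of UMIs in the main E11.5 embryonic-globin clusters, and 1.24% to 14.7% in the adult-globin ones. The median cell at E11.5 held 1 Epor UMI in the embryonic-globin class and 3 in the adult-globin class. The adult-globin class lay above the globin-poor class by 0.34 (0.22 to 0.45) on the log2 scale, and the globin-poor class above haematopoietic progenitor-like cells by 0.94 (0.67 to 1.23). Haematopoietic progenitor-like cells had 67.4 CPM (55.7 to 80.8) at E11.5 and 62.9 CPM (38.4 to 97.2) at E10.5, and megakaryocyte-like cells had 57.3 CPM (48.1 to 67.6) at E11.5 and 42.0 CPM (15.4 to 91.3; 6 UMIs) at E10.5. These last 2 classes were not separated from each other at E11.5 (log2 ratio 0.24, -0.13 to 0.60).

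An Epor UMI was seen in 93.1% of adult-globin and 96.3% of globin-poor erythroid-like cells at E11.5, and in 52.2% of embryonic-globin cells at E11.5 against 85.8% at E10.5. The embryonic-globin cells differed in depth, with a median of 17307 UMIs at E11.5 and 31130 UMIs at E10.5, and thinned to 5000 UMIs the shares were 22.4% at E11.5 and 29.9% at E10.5. The thinned UMIs include haemoglobin, at 70.7% and 67.2% in the main E11.5 clusters of this class and 47.6% in the E10.5 one. Thinned cells of this class thus still differed in their UMIs of other genes. As a background, Epor was read in the neural crest or glia-like class. Whether cells of this class respond to erythropoietin was not tested, so it is a level for comparison and not a known zero. Its level there was 1.93 CPM in 3.15% of cells at E11.5 and 0.595 CPM in 1.303% of cells at E10.5, at median depths of 21742 UMIs at E11.5 and 20414 UMIs at E10.5. Single globin-poor cells held up to 16 Epor UMIs and single adult-globin cells up to 17. The single cells of each class spread widely: the middle 50% of adult-globin cells lay between 103 and 221 CPM and that of globin-poor cells between 74.1 and 178 CPM.

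Clusters within these classes also differed. Among adult-globin clusters at E11.5 the level was 183 CPM (169 to 199) in 115 cells with 5.67% of UMIs from haemoglobin, 165 CPM (146 to 186) in 117 cells with 14.7% haemoglobin and 149 CPM (138 to 161) in 157 cells with 1.24% haemoglobin. Epor was thus present from cells with little globin to cells with much of it. The interval of the 165 CPM cluster overlapped both others, while those of the 183 CPM and the 149 CPM cluster did not overlap. Of the embryonic-globin clusters, 1 with 37 cells reached 226 CPM (172 to 291) and another with 133 cells had 163 CPM (132 to 199) at E11.5, while the cluster that held nearly all E10.5 cells had 161 CPM (146 to 177) there.

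**Figure D2:**
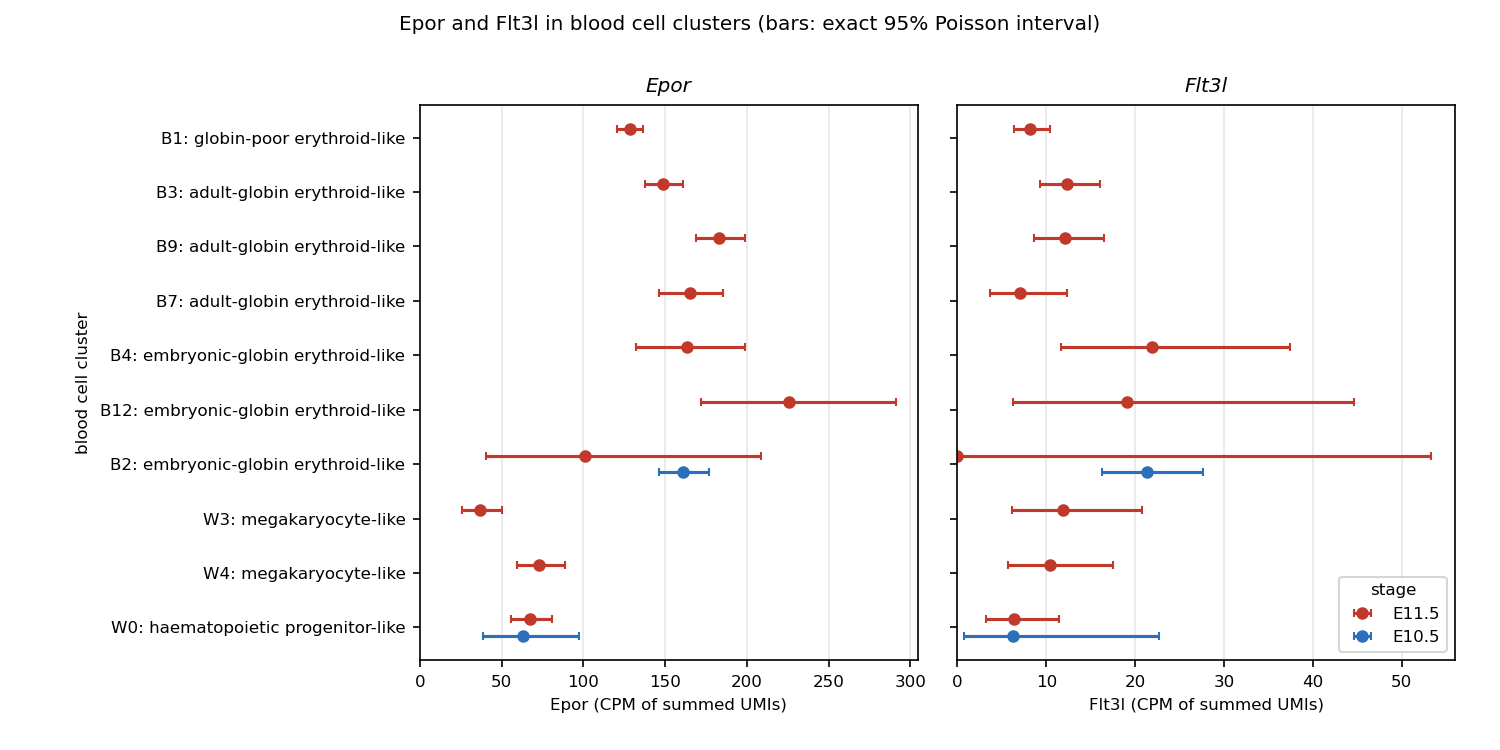
Levels of Epor on the left and Flt3l on the right, in CPM, in clusters of blood cells, with E11.5 points in red, E10.5 points in blue and bars for the exact 95% Poisson interval. Among the plotted clusters, Epor is between 128 and 226 CPM at E11.5 in erythroid-like ones, apart from the cluster with 14 E11.5 cells. It is below 75 CPM in the plotted megakaryocyte-like and haematopoietic progenitor-like clusters. A globin-poor erythroid-like cluster of 16 E11.5 cells and a megakaryocyte-like cluster with 25 E11.5 cells are not plotted. The Flt3l intervals of most clusters overlap.

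Between stages, Epor in embryonic-globin erythroid-like cells had a log2 ratio, E11.5 over E10.5, of 0.13 (-0.14 to 0.39), where the median of all 7379 measured genes was -0.15. The value depends on the scale: with haemoglobin left in the total it was -0.60 (-0.87 to -0.34), since haemoglobin made up 70.7% and 67.2% of UMIs in the main E11.5 clusters of this class against 47.6% in the E10.5 one. In the 1 cluster shared by both stages Epor had 7 UMIs in 14 cells at E11.5 (101 CPM) and 444 in 181 cells at E10.5 (161 CPM), a log2 ratio of -0.67 (-1.99 to 0.39). The sign of the stage ratio of Epor thus depended on the scale and on the cluster.

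Erythroid markers were also counted in other classes, and the level of 9 of them is given beside Epor. At E11.5 the summed level of the markers was 9082 CPM in embryonic-globin, 2852 CPM in adult-globin and 1048 CPM in globin-poor erythroid-like cells, 492 CPM in haematopoietic progenitor-like cells, 107 CPM in megakaryocyte-like cells and 60.3 CPM in macrophage-like cells. Per 100 erythroid marker UMIs, the number of Epor UMIs at E11.5 was 1.94 in embryonic-globin, 5.74 in adult-globin and 12.4 in globin-poor erythroid-like cells, 13.7 in haematopoietic progenitor-like cells, 19.8 in macrophage-like cells and 53.7 in megakaryocyte-like cells. The ratio was also above that of every erythroid-like class in several classes outside the blood, such as mesenchyme-like cells (31.8) and smooth muscle or mural-like cells (32.9) at E11.5, so it was not particular to megakaryocyte-like cells. Macrophage-like cells had 11.9 CPM (7.39 to 18.3) of Epor at E11.5 and 3.54 CPM (2 UMIs) at E10.5. The part of engulfed or free red cell RNA in the macrophage-like value was not tested. Among vessels, venous or sinusoidal endothelium-like cells had 10.8 CPM (5.16 to 19.8; 10 UMIs) at E11.5, and arterial endothelium-like cells had 2.52 CPM (3 UMIs) at E11.5 and 7.18 CPM (4.32 to 11.2) at E10.5. Nephric duct or tubule-like cells had 3.37 CPM (10 UMIs) at E11.5 and 0.921 CPM (7 UMIs) at E10.5, a log2 ratio of 1.87 (0.33 to 3.50) in a class whose clusters differed between stages. The background class of Epor, neural crest or glia-like cells, had a similar ratio of 1.70 (-0.10 to 3.83). Erythroid markers in nephric duct or tubule-like cells were at 14.8 CPM at E11.5 and 3.03 CPM at E10.5.

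The genes whose level most resembled Epor over the 37 sums were Cited4 (r 0.95), Gata1, a master regulator of red cells and megakaryocytes (r 0.95), and Car2, a carbonic anhydrase of red cells (r 0.95). Of the JAK-STAT genes, which carry the signal of EPOR, 12 of 18 were measured in embryonic-globin erythroid-like cells at both stages. At E11.5 2 were at least 2-fold higher (Jak1 and Cbl) and 1 lower, a median log2 ratio of 0.27, beside shares of 10% higher and 15.9% lower over all genes. Jak1 had 53.0 CPM at E11.5 and 25.7 CPM at E10.5 (log2 ratio 1.04, 0.49 to 1.59). Jak2, the kinase bound to EPOR, had 32.4 CPM at E11.5 and 24.3 CPM at E10.5. All levels and ratios in this paragraph leave haemoglobin out of the total. With haemoglobin left in, the stage ratio of every gene in this class was lower by the same amount, as for Epor. The 2-fold counts rest on this scale too. Most E11.5 cells were in clusters of 133 and 37 cells, and 181 E10.5 cells in a cluster with 14 E11.5 cells. Of 12 measured genes of cytokine response and feedback, 2 were at least 2-fold higher and 2 lower. Bcl2l1, which encodes the survival protein BCL-XL and is a known target of erythropoietin signalling, had 141 CPM (117 to 167) at E11.5 and 29.3 CPM (23.3 to 36.5) at E10.5, a log2 ratio of 2.26 (1.85 to 2.68). Ccnd2, a cyclin of G1 phase, had 30.3 CPM at E11.5 and 89.1 CPM at E10.5 (log2 ratio -1.56, -2.18 to -0.99). Pim1, a kinase gene induced by STAT5, had 499 CPM at E11.5 and 402 CPM at E10.5. At E11.5 Pim1 was lower in the other erythroid-like classes, at 125 CPM in adult-globin and 63.9 CPM in globin-poor cells, and Bcl2l1 there had 13.4 CPM in adult-globin and 7.62 CPM in globin-poor cells. Of the oxygen sensing genes, 5 were measured in embryonic-globin cells, and 2 (Egln1 and Egln2, which encode HIF prolyl hydroxylases) were at least 2-fold lower at E11.5 and none higher. Stat5a had the opposite order to Pim1 and Bcl2l1 among the E11.5 erythroid-like classes, with 5.41 CPM (5 UMIs) in embryonic-globin, 11.1 CPM in adult-globin and 25.5 CPM in globin-poor cells.

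Csf1 (ENSMUSG00000014599, chr3:107741048-107760469), a growth factor of macrophages, was highest in hepatic stellate-like cells, the mesenchymal cells that lie beside the liver sinusoids. It had 140 UMIs in 189 cells at E11.5, a level of 52.0 CPM (43.8 to 61.4), and 57 UMIs in 99 cells at E10.5, a level of 47.5 CPM (35.9 to 61.5). The log2 ratio, E11.5 over E10.5, was 0.13 (-0.32 to 0.60), beside a median of -0.03 over all 9908 genes measured in this class. When cells with over 5% mitochondrial UMIs were left out, the class took in more cells (342 at E11.5 and 285 at E10.5) and the ratio was 0.48 (0.12 to 0.85), an interval that leaves out 0. A Csf1 UMI was seen in 48.1% of these cells at E11.5 and 39.4% at E10.5, or 24.9% and 19.8% when thinned to 5000 UMIs. In adult-globin erythroid-like cells at E11.5, taken as the background, the level was 0.32 CPM, and 0.51% of cells held a UMI.

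Arterial endothelium-like cells came next in both libraries, with 15.9 CPM (9.59 to 24.9) at E11.5 and 19.6 CPM (14.7 to 25.8) at E10.5. The hepatic stellate-like level exceeded it by a log2 ratio of 1.71 (1.01 to 2.48) at E11.5 and 1.27 (0.70 to 1.84) at E10.5. The stage ratio in arterial endothelium-like cells was -0.30 (-1.14 to 0.48), and 0.31 (-0.90 to 1.49) when cells with over 5% mitochondrial UMIs were left out, so its direction was not settled. That class was made of different clusters at the 2 stages, of which 1 held 41 cells at E11.5 and 2 at E10.5 and another 4 at E11.5 and 116 at E10.5. In the cluster shared by both stages the level was 30.4 CPM from 11 cells at E11.5 and 14 CPM from 30 cells at E10.5, with a log2 ratio of 1.12 (-0.11 to 2.35), and at E11.5 the most in a single arterial endothelium-like cell was 7 of the 19 UMIs. Endothelium-like cells of the clusters not named arterial had 3.68 CPM (12 UMIs) at E11.5 and 2.60 CPM (10 UMIs) at E10.5.

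Mesenchymal classes carried Csf1 at lower levels. Visceral mesenchyme-like cells had 14.7 CPM (11.1 to 19.0) at E11.5 and 9.56 CPM (7.69 to 11.7) at E10.5, a log2 ratio of 0.62 (0.12 to 1.11). At E11.5 they were not separated from arterial endothelium-like cells (log2 ratio 0.12, -0.71 to 0.89), whereas at E10.5 the arterial level was higher by 1.04 (0.52 to 1.55). The ratio in visceral mesenchyme-like cells turned to -0.051 when a finer clustering left 15 such cells at E11.5. Mesenchyme-like and mesothelium-like cells, found nearly all at E11.5, had 9.26 CPM (7.34 to 11.53) and 9.04 CPM (6.77 to 11.8) and were not separated from each other. Smooth muscle or mural-like cells had 6.55 CPM (4.48 to 9.25) at E11.5 and 5.62 CPM (4.03 to 7.62) at E10.5. Nephric duct or tubule-like cells had 5.05 CPM (2.83 to 8.33; 15 UMIs) at E11.5 and 1.05 CPM (8 UMIs) at E10.5, a log2 ratio of 2.26 (0.93 to 3.71). In that class 12.3% of all genes were at least 2-fold higher at E11.5 and 4.12% lower, and the median gene had a log2 ratio of 0.17. At E11.5 it was made of 2 clusters, of which 1, with 138 cells, had no E10.5 cells. Hepatoblast-like cells had 4.21 CPM at E11.5 and 2.54 CPM (7 UMIs) at E10.5.

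The genes most like Csf1 over the 37 sums were Nrxn3, Grk5 and Tnfrsf11b, the last encoding osteoprotegerin (r 0.86, 0.86 and 0.83). Of 3 other measured ligands in hepatic stellate-like cells, all 3 (Kitl, Il15 and Angpt1) were at least 2-fold lower at E11.5, where 4.45% of all genes were, and 5.6% were at least 2-fold higher. Of these, Kitl alone had at least 100 UMIs. Kitl, the ligand of the KIT receptor, had 69.1 CPM (59.6 to 79.8) at E11.5 and 169 CPM (147 to 194) at E10.5, a log2 ratio of -1.29 (-1.58 to -0.996), and Angpt1, the ligand of the TIE2 receptor, had 7.81 CPM at E11.5 and 53.3 CPM at E10.5 (log2 ratio -2.77, -3.56 to -2.04). The difference between the Csf1 and the Kitl ratio was not tested, but their intervals do not overlap.

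Il34 (ENSMUSG00000031750, chr8:110741829-110805924), the other ligand of CSF1R, was sparse. Among classes of at least 20 cells at E11.5, its level was highest in nephric duct or tubule-like and gonad or adrenal-like cells. Gonad or adrenal-like cells had 17 UMIs in 616 cells at E11.5, a level of 1.99 CPM (1.16 to 3.19), and that class had no cells at E10.5. Of these, 10 UMIs came from 1 cluster of 82 cells, at 12.9 CPM (6.19 to 23.7). The lack of this class at E10.5 rests on the naming rule. An unnamed cluster of 565 E10.5 and 52 E11.5 cells had the class markers Lhx9 and Nr5a1 among its leading genes. Nephric duct or tubule-like cells had 2.02 CPM (6 UMIs) at E11.5 and 0.53 CPM (4 UMIs) at E10.5, a log2 ratio of 1.94 (-0.14 to 4.21). In hepatic stellate-like cells Il34 was at 0 UMIs in both libraries, which allows 1.12 CPM at E11.5 and 2.50 CPM at E10.5. Mesothelium-like cells had 1.02 CPM (6 UMIs) at E11.5. Both ligands of CSF1R were thus seen in nephric duct or tubule-like and mesothelium-like cells, while Csf1 without an Il34 UMI was seen in hepatic stellate-like and arterial endothelium-like cells. The limits in hepatic stellate-like cells lie above the mesothelium-like level, so the counts of 0 cannot show that Il34 was absent from the liver. In the arterial class, with 56 cells at E11.5 and 148 at E10.5, a low level is not excluded either.

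**Figure D3:**
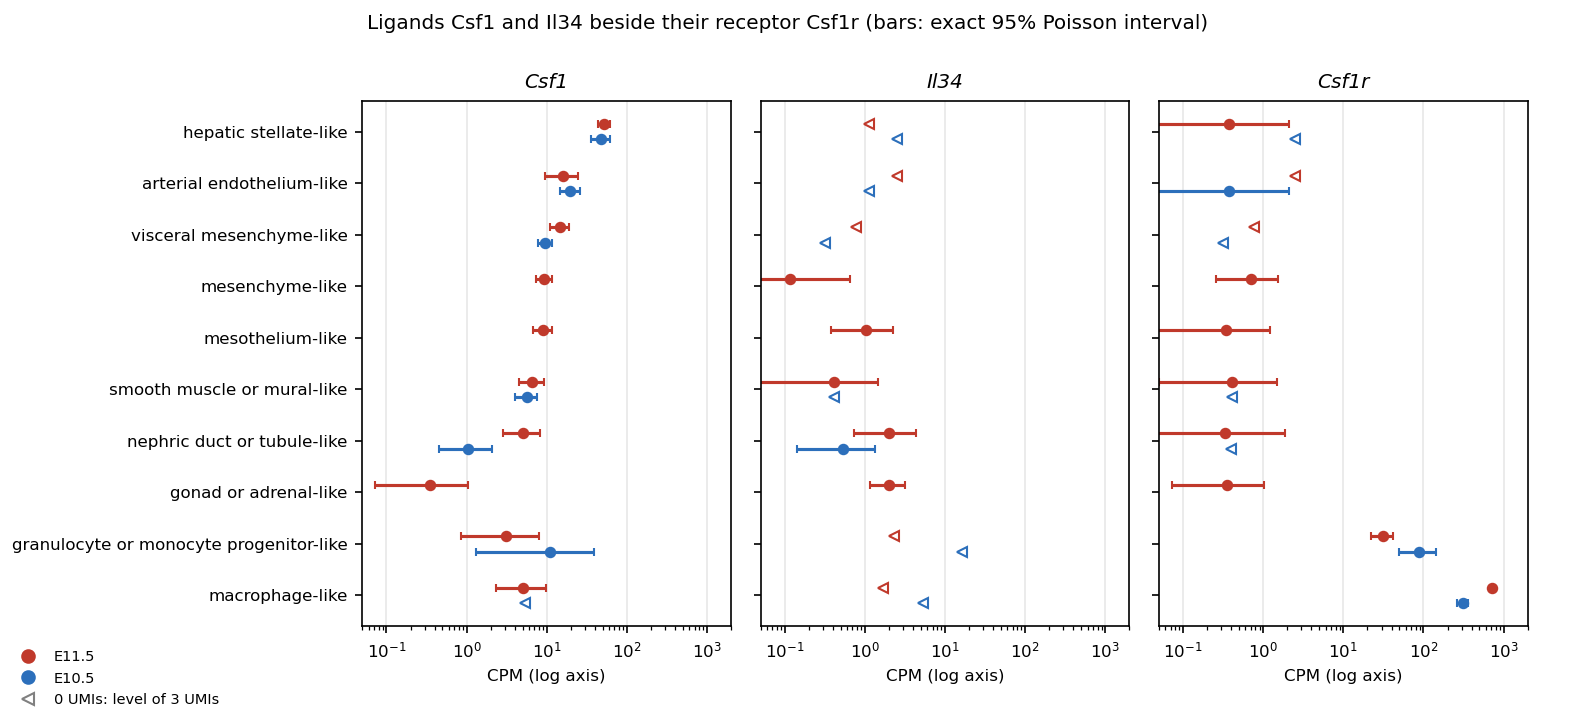
Levels of Csf1, Il34 and Csf1r in CPM on a log axis, by class, with E11.5 points in red above E10.5 points in blue. Bars are exact 95% Poisson intervals, and open triangles mark the level of 3 UMIs where no UMI was seen. Csf1 is highest in hepatic stellate-like cells, at 52.0 CPM at E11.5 and 47.5 CPM at E10.5, and Csf1r in macrophage-like cells, at 714 CPM at E11.5 and 310 CPM at E10.5.

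Csf1r (ENSMUSG00000024621), the receptor of both ligands, was a transcript of macrophage-like cells and was higher there in the E11.5 library. It had 1256 UMIs in 93 macrophage-like cells at E11.5, a level of 714 CPM (675 to 755), and 175 UMIs in 26 cells at E10.5, a level of 310 CPM (266 to 359). The log2 ratio, E11.5 over E10.5, was 1.21 (0.98 to 1.44), where 12% of all 8154 measured genes were at least 2-fold higher and 7.6% lower and the median gene stood at -0.03. All but 1 of the E11.5 cells (98.9%) and 23 of the 26 E10.5 cells (88.5%) held a UMI, against 96.7% at E11.5 and 77.3% at E10.5 after thinning to 5000 UMIs. In single cells the median was 721 CPM at E11.5, with the middle 50% between 531 and 931 CPM, and 305 CPM at E10.5, with the middle 50% between 174 and 417 CPM. The highest single E10.5 cell lay above all E11.5 cells, so single cells of the 2 libraries overlapped. Neural crest or glia-like cells, as the background, had 0.193 CPM (1 UMI) at E11.5 and 0 UMIs at E10.5.

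The stage difference in Csf1r went together with a change in which macrophage-like clusters were present. At E11.5 the class consisted of clusters of 56, 24 and 13 cells, at 784 CPM (727 to 844), 710 CPM (645 to 779) and 459 CPM (377 to 554). At E10.5, 24 of the 26 cells were in the last of these clusters, at 282 CPM (237 to 332). Within that shared cluster the log2 ratio was 0.70 (0.33 to 1.07), from 108 UMIs in 13 cells at E11.5 and 143 UMIs in 24 cells at E10.5. The ratio within the cluster is smaller than that of the whole class, and both intervals lie above 0. With 1 library per stage, a stage difference and a library difference cannot be told apart.

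**Figure D4:**
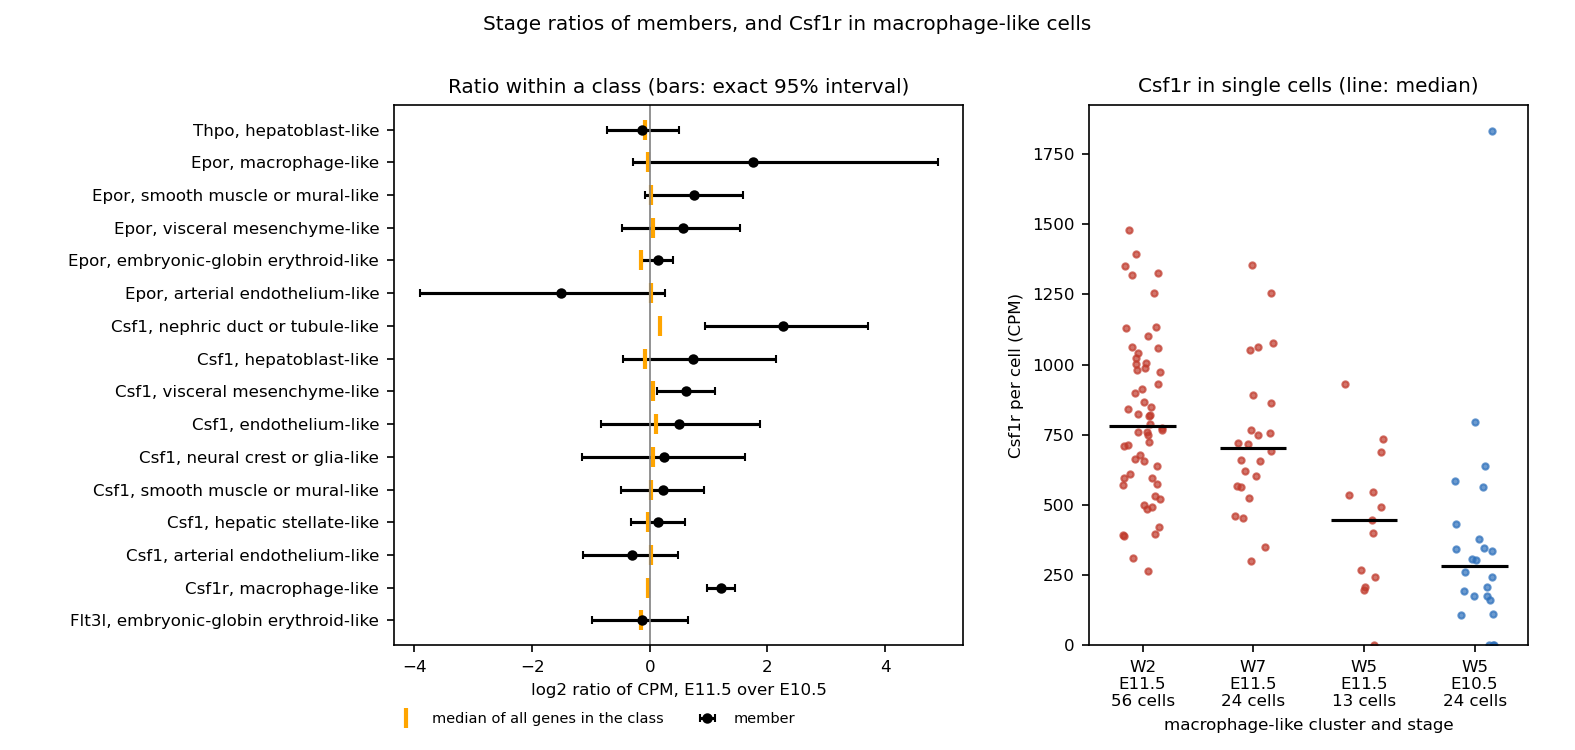
Left, log2 ratio of CPM, E11.5 over E10.5, of the 9 genes in classes with enough UMIs, with exact 95% intervals and the median of all genes of the class as an orange mark. Right, Csf1r in single macrophage-like cells in CPM by cluster and stage, with E11.5 cells in red, E10.5 cells in blue and the median as a line. Csf1r in macrophage-like cells (1.21) and Csf1 in nephric duct or tubule-like cells (2.26) have the ratios farthest from the class medians among the plotted intervals that leave out 0, which are of genes with at least 20 UMIs in both libraries together.

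Granulocyte or monocyte progenitor-like cells had Csf1r at 30.9 CPM (22.1 to 42.1; 16 of 52 cells) at E11.5 and 87.5 CPM (49.99 to 142) in the 5 cells at E10.5. At E11.5 the macrophage-like level was higher by a log2 ratio of 4.53 (4.08 to 5.02). With each library clustered alone, the cells of this name numbered 22 at E11.5 and had Csf1r at 98.8 CPM (71.5 to 133), so the size of that gap depended on the clustering. The genes most like Csf1r over the 37 sums were Ms4a6c, Ly86 and Cx3cr1 (r 1.00, 1.00 and 0.99), all of which are macrophage genes. Macrophage-like cells themselves had Csf1 at 5.12 CPM (9 UMIs) at E11.5 and 0 UMIs at E10.5. The macrophage markers were also higher at E11.5, with a summed level of 10830 CPM at E11.5 and 4701 CPM at E10.5, and Cd163 was the only one of the 9 at 0, at E10.5. Their part in the Csf1r difference was not tested.

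Of the other cytokine receptors, 10 were measured in macrophage-like cells, and 4 were at least 2-fold higher at E11.5 and 1 lower, a median log2 ratio of 0.29, beside the 12% higher and 7.6% lower over all genes of this class. Those higher were Crlf2, Csf2ra, Csf2rb and Csf2rb2, and 3 of these belong to the receptors of GM-CSF, IL-3 and IL-5. Csf2ra had 81.3 CPM at E11.5 and 21.2 CPM at E10.5 (log2 ratio 1.94, 1.09 to 2.92), and Csf2rb had 95.5 CPM at E11.5 and 26.5 CPM at E10.5 (1.85, 1.08 to 2.72). Of 18 JAK-STAT genes, 4 were at least 2-fold higher and 1 lower. Of 9 measured myeloid regulators, 2 were at least 2-fold higher and none lower, with a median of 0.57. With a minimum of 100 UMIs a gene, 2 of 3 receptors, 1 of 8 JAK-STAT genes and 1 of 7 myeloid regulators were at least 2-fold higher, where 8.97% of all genes were higher and 6.02% lower. Of 10 response genes 1 was at least 2-fold higher and 2 lower. Dusp6, a phosphatase induced by ERK signalling, had 125 CPM at E11.5 and 47.8 CPM at E10.5 (1.38, 0.80 to 2.02), and Ccnd2 had 25.02 CPM at E11.5 and 127 CPM at E10.5 (-2.35, -2.92 to -1.79).

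Flt3l (ENSMUSG00000110206, chr7:45129788-45136432), the ligand of FLT3, was found in red cell and megakaryocyte classes rather than in stroma. At E11.5 it had 18 UMIs in embryonic-globin erythroid-like cells (19.5 CPM, 11.54 to 30.8), 106 in adult-globin ones (11.3 CPM, 9.24 to 13.7), 26 in megakaryocyte-like cells (10.8 CPM, 7.05 to 15.8) and 67 in globin-poor erythroid-like cells (8.11 CPM, 6.28 to 10.3). At E10.5 it had 59 UMIs in embryonic-globin erythroid-like cells (21.4 CPM, 16.3 to 27.6) and 4 in 9 megakaryocyte-like cells (27.98 CPM, 7.62 to 71.6). Classes of at least 20 cells were ranked. Neighbours in the E11.5 order, from embryonic-globin cells down to haematopoietic progenitor-like cells at 6.39 CPM, did not differ beyond their counting error. Like the order for Epor, this one holds for the total without haemoglobin. At E10.5, where the megakaryocyte-like and the 8 haematopoietic progenitor-like cells (6.29 CPM, 2 UMIs) were too few to be ranked, the embryonic-globin class lay above the next ranked class, macrophage-like cells at 5.31 CPM (3 UMIs), by a log2 ratio of 2.01 (0.39 to 4.33).

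The stage ratio in embryonic-globin erythroid-like cells was -0.13 (-0.98 to 0.65), with a Flt3l UMI in 8.70% of cells at E11.5 and 26.8% at E10.5, or 4.61% and 4.60% after thinning to 5000 UMIs. As for Epor, the thinned UMIs include haemoglobin, so the thinned cells still differed in their UMIs of other genes. With haemoglobin left in the total the ratio was -0.86 (-1.71 to -0.08), so that its interval left out 0 on this scale. Adult-globin and globin-poor cells held 35.3% and 22.3% of all Flt3l UMIs at E11.5, and embryonic-globin cells held 57.8% at E10.5. Of the 266 cells with a Flt3l UMI at E11.5, 192 also had an Epor UMI, and of the 88 at E10.5, 53 did. Stromal classes were near the detection limit: hepatic stellate-like cells had 4 UMIs (1.49 CPM) at E11.5 and 0 at E10.5, and neural crest or glia-like cells had 3 UMIs (0.579 CPM) at E11.5 and 0 at E10.5. The genes most like Flt3l over the 37 sums included Tmem14c, which serves haem synthesis (r 0.95), and Epor (r 0.93). The exons of Flt3l overlap those of Gm45713 on the same strand by 856 of 3878 bases, none of them in the last 300 bases of the gene.

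Flt3 (ENSMUSG00000042817, chr5:147330741-147400489), the receptor of FLT3 ligand on early progenitors, was found in granulocyte or monocyte progenitor-like and haemogenic or cluster-like cells. At E11.5 it had 37 UMIs in 17 of 52 granulocyte or monocyte progenitor-like cells, a level of 28.6 CPM (20.1 to 39.4), which was 71.2% of all its UMIs. The 5 such cells at E10.5 held none. Haemogenic or cluster-like cells, which share genes of endothelium and of the blood clusters budding from it, had 6 UMIs in 3 of 5 cells at E11.5 (41.9 CPM, 15.4 to 91.2) and 2 UMIs in 1 of 17 cells at E10.5 (3.27 CPM, 0.40 to 11.8). Haematopoietic progenitor-like cells, which had Epor, had no Flt3 UMI, which allows 1.74 CPM at E11.5 and 9.44 CPM at E10.5. Of the classes with Flt3l, erythroid-like and megakaryocyte-like cells together held 1 Flt3 UMI, in a globin-poor cell. Neural crest or glia-like cells held 0 at both stages.

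Il7r (ENSMUSG00000003882, chr15:9505788-9530176), the IL-7 receptor, had nearly all its UMIs in the same class. At E11.5 it had 31 of its 32 UMIs in 10 of 52 granulocyte or monocyte progenitor-like cells, a level of 23.96 CPM (16.3 to 34.0), and at E10.5 2 UMIs in 1 of 5 such cells (10.9 CPM, 1.32 to 39.5). The remaining E10.5 UMIs were single ones, in a macrophage-like, a haemogenic or cluster-like and a nephric duct or tubule-like cell. Il7, its ligand, was sparse, with 3.16 CPM (3 UMIs) in germ cell-like, 2.05 CPM (12 UMIs) in mesothelium-like and 1.74 CPM (15 UMIs) in mesenchyme-like cells at E11.5, and at most 2 UMIs in any named class at E10.5. Hepatic stellate-like cells held no Il7 UMI in either library.

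Both receptors met in single cells. Of the 28 cells with a Flt3 UMI and the 11 with an Il7r UMI at E11.5, 8 had both, and all 8 were granulocyte or monocyte progenitor-like (15.4% of the 52 cells, 6.88 to 28.1%). At E10.5, 3 cells had Flt3 and 4 had Il7r, and none had both. The 52 cells were divided after the data were seen into the 8 with both, 9 with Flt3 and no Il7r, 2 with Il7r and no Flt3 and 33 with neither, and the following values describe 1 library with no test. Median depth was 26003 UMIs in cells with both, 24845 in those with Flt3 and no Il7r and 23845 in those with neither, so the 3 larger sets were close in depth.

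The 8 markers of the class did not all have the same order over these sets. Mpo, the gene of myeloperoxidase, had 280 CPM in cells with both receptors, 629 CPM in those with Flt3 and no Il7r and 3225 CPM in those with neither. Prtn3, the gene of proteinase 3, followed the same order with 491 CPM, 638 CPM and 3555 CPM. Elane, the gene of neutrophil elastase, had 0 UMIs, 4.37 CPM (1 UMI) and 711 CPM, and S100a8, a gene of neutrophils and monocytes, had 0 UMIs in both sets with Flt3, which allows 15.02 CPM and 13.1 CPM, and 4205 CPM in cells with neither. S100a8 among the cells with neither came from 10 of 33 cells, so that set was itself mixed. Of the other markers, Ctsg and Cebpe had 0 UMIs in both sets with Flt3, against 39 and 183 UMIs in cells with neither, and Ms4a3 had 1 UMI in cells with both, 0 in those with Flt3 and no Il7r and 328 in those with neither. Nkg7, a granule gene of killer cells and granulocytes, had another order, at 45.0 CPM in cells with both, 30.6 CPM in those with Flt3 and no Il7r and 36.6 CPM in those with neither, and Calr4 had no UMI in any set.

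Other genes had another order. Spi1, the gene of the myeloid and lymphoid regulator PU.1, had 250 CPM in cells with both receptors, 253 CPM in those with Flt3 and no Il7r and 308 CPM in those with neither. Irf8, a regulator of monocytes, dendritic cells and B cells, had 155 CPM, 83.0 CPM and 74.5 CPM, the first from 2 of 8 cells. Ighm, whose unrearranged transcripts are known in early lymphoid progenitors, had 140 CPM (5 of 8 cells), 65.5 CPM (5 of 9 cells) and 21.3 CPM (3 of 33 cells). Ighm was not particular to cells with Flt3, since the 5 cells of this class at E10.5, without a Flt3 UMI, had 76.5 CPM. In macrophage-like cells the lymphoid list, of which only Ebf1 and Ighm had UMIs, summed to 184 CPM at E11.5 and 115 CPM at E10.5. Csf1r had 55.1 CPM (2 of 8 cells), 39.3 CPM (4 of 9 cells) and 20.1 CPM (9 of 33 cells), so the shares of cells did not follow the order of the levels. Both Flt3 and Csf1r were seen in 6 of the 52 cells. Kit had 25.03 CPM (3 of 8 cells), 96.1 CPM and 50.8 CPM. Of the other 7 genes of the lymphoid list, Rag1, Dntt, Cd3e, Cd79a and Igll1 were at 0 UMIs in each set. Ebf1, a regulator of B cells, had 0 UMIs in both sets with Flt3 and 7 in cells with neither, and Vpreb1, of the pre-B cell receptor, had 0 UMIs in cells with both, 1 in those with Flt3 and no Il7r and 1 in those with neither. Epor was at 0 UMIs in the sets with Flt3.

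**Figure D5:**
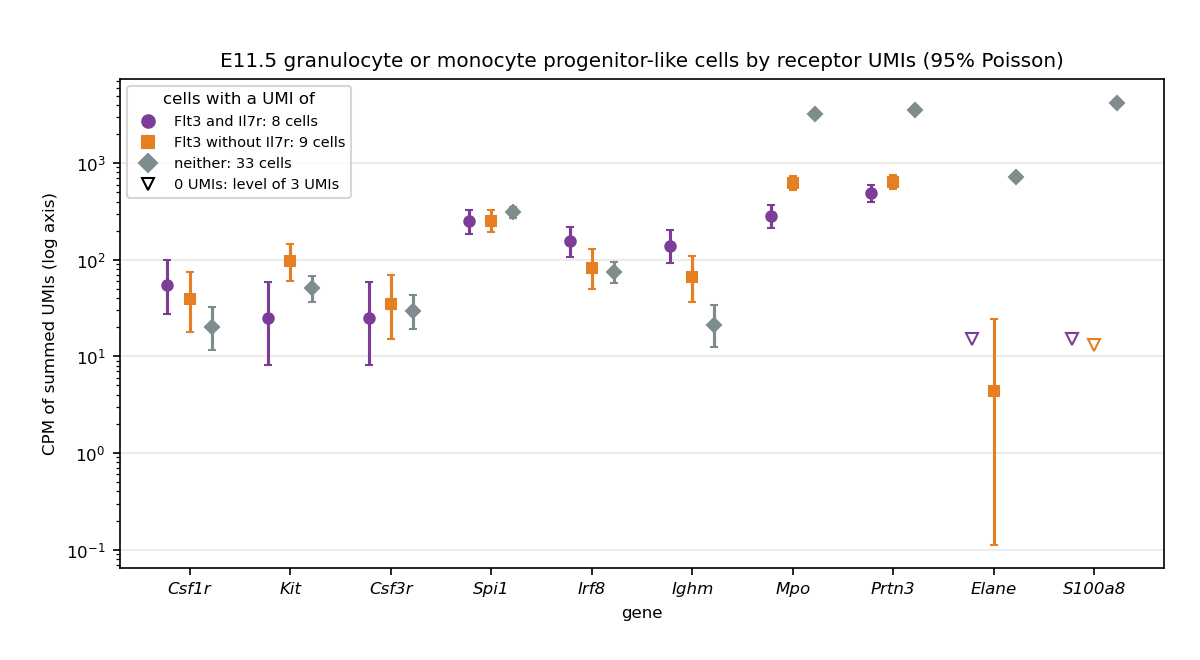
Levels in CPM on a log axis of receptors, regulators and granule genes in E11.5 granulocyte or monocyte progenitor-like cells, divided by UMIs of Flt3 and Il7r. Purple points are the 8 cells with both, orange the 9 with Flt3 and no Il7r, grey the 33 with neither. Bars are exact 95% Poisson intervals and open triangles mark the level of 3 UMIs where none was seen. Mpo is at 280, 629 and 3225 CPM in this order, while Spi1 stays between 250 and 308 CPM.

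The name of the class that holds these 8 cells depended on the clustering. With a finer clustering, or with the E11.5 library clustered alone, the 8 cells fell in a cluster of 38 E11.5 cells that was named haematopoietic progenitor-like and had Flt3 at 34.5 CPM or 40.4 CPM and Il7r at 23 CPM or 23.1 CPM. The cluster then named granulocyte or monocyte progenitor-like had no Flt3 UMI. The genes most like Flt3 and Il7r over the 37 sums (Stfa3, S100a9 and Elane, and Ngp, Gm5483 and BC100530) are neutrophil genes of that class, which the cells with the receptors lacked in the case of S100a9 and Elane, apart from 1 Elane UMI.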

How the data were processed

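Per the labels' protocols, dissected tissue was dissociated with collagenase/dispase and trypsin and made into libraries with a 10x 3′ kit. The deposited values are whole UMI counts per gene and barcode, which the authors made with Cell Ranger 5.0.0 against mm10 (GRCm38), per the submitters' processing notes. They were not normalized. Of 31053 gene identifiers, 31011 matched GENCODE mouse release M21, used for positions.

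A barcode was kept as a cell when its UMIs reached 1000, its detected genes reached 500 and the mitochondrial part of its UMIs did not pass 10%, which left 9756 cells at E11.5 and 8705 at E10.5. Scrublet marked 0% of cells at its automatic threshold in either library, so the 8% with the highest scores (780 at E11.5 and 696 at E10.5) were removed. The libraries were clustered together with scanpy 1.11.5 and leidenalg 0.10.2 on 2000 variable genes, 40 principal components and 15 neighbours at resolution 1.0, leaving out haemoglobin, mitochondrial and Y-linked genes and the cytokine ligands and receptors. Vascular and blood clusters were clustered again. A name required 3 or more markers of its list that reached 20 CPM in the cluster and exceeded the remaining clusters by 3-fold or more after 20 CPM had been added to both levels.

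UMIs were summed per class and library. CPM have exact Poisson, shares Clopper-Pearson and ratios conditional binomial 95% intervals. A count of 0 was read as allowing 3 counts. PCR duplicates are removed by UMIs, yet intervals cover counting error only. Ratios were planned for classes with at least 50 cells in each library. In classes with at least 10 cells in each, both levels were to be set side by side with intervals. The Csf1r ratio in macrophage-like cells, with 93 cells at E11.5 and 26 at E10.5, falls under the second rule. So do the ratios within shared clusters of fewer than 50 cells in a library. List genes needed at least 20 UMIs in both libraries together and were named from 50 CPM in 1 library and a 2-fold difference, at most 4 each way per list and class. Some genes that this rule names are not reported here. The 9 genes, the lists, the naming thresholds, the reclustering of white blood cells, the division of erythroid cells by globin and of progenitor cells by Flt3 and Il7r UMIs were chosen with results of these data known. Interval code was tested on simulated data. Python 3.11.15, numpy 2.4.6, scipy 1.17.1, pandas 2.3.3 and matplotlib 3.10.9 were used.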

Additional observations from a re-analysis of the deposited data

How the results depend on the processing

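The cell filters, doublet removal, clustering resolution, joint clustering, genes left out of the clustering, CPM total, averaging, gene list minimum and thinning were changed 1 at a time. Of the 104 alternative values of the main levels and ratios, 97 moved by less than their counting error and 7 by more. Flt3 in granulocyte or monocyte progenitor-like cells at E11.5 was 0 CPM at resolution 2.0 and 0 CPM with each library clustered alone, because the cells with Flt3 were then named haematopoietic progenitor-like. Il7r in that class was 16.1 CPM with each library clustered alone and 35.2 CPM as a mean over cells, and Csf1r there was 98.8 CPM with each library clustered alone. With CPM over all genes the Epor ratio in embryonic-globin erythroid-like cells was -0.60, the Flt3l ratio there was -0.86 (-1.71 to -0.08) and the Epor level in adult-globin ones was 148 CPM. Epor in globin-poor erythroid-like cells was 120 CPM with doublets kept and 143 CPM as a mean over cells. The Csf1 ratio in arterial endothelium-like cells was -1.27 as a mean over cells and 0.31 (-0.90 to 1.49) with at most 5% mitochondrial UMIs, a setting at which the Csf1 ratio in hepatic stellate-like cells was 0.48 (0.12 to 0.85). The Csf1 ratio in visceral mesenchyme-like cells turned to -0.051 at resolution 2.0 and was 1.19 with the cytokine genes kept in the clustering. Il34 in gonad or adrenal-like cells was 10.1 CPM with doublets kept, a setting at which the class held 84 cells at E11.5 in place of 616. Whether these were mainly the cells of the 82-cell cluster with 12.9 CPM was not tested. Shares of cells with a UMI fell with thinning, as the construction of that alternative implies. With list genes of at least 100 UMIs, 2 other receptors, 1 JAK-STAT gene and 1 myeloid regulator were at least 2-fold higher in macrophage-like cells (4, 4 and 2 at 20 UMIs), and 1 ligand was lower in hepatic stellate-like cells (3 at 20 UMIs). No value could be had for Csf1 in visceral mesenchyme-like cells at 5% mitochondrial UMIs, at resolution 0.5 or with each library alone, or in hepatic stellate-like cells with each library alone. No paired analysis was possible because each stage is 1 library.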
